A study of Mus musculus with 12 samples.

Results

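Transcript levels of 8 acute phase genes, Hp, Lcn2, Lrg1, Saa3, Orm1, Steap4, C3 and Serpina3n, were followed in mouse embryonic fibroblasts of 4 genotypes on day 6 of differentiation into adipocytes. The 8 came as a named list out of 37991 gene identifiers in the count files, chosen with earlier results of these data known. Shares of all genes set beside them below are therefore a description and no test. All 8 were kept whatever their values, passed the filter on low counts and were tested. Of these, 7 encode secreted plasma proteins. Steap4 encodes a metalloreductase of cell membranes and is not secreted, so the name "secreted proteins" covers it only as an acute phase and cytokine-responsive gene. Poly(A) RNA was sequenced in 12 libraries, 3 per genotype.

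The cells came from male E15.5 embryos on a C57BL/6N background, which the 4 genotypes share, and had been cultured for 4 passages. Mice deficient in Gadd45a, whose stress-induced product has been tied to DNA repair and to removal of DNA methylation, and in Ing1, whose product reads methylated histone H3, had been interbred. The groups, by their labels, are DKO (Gadd45a-/-;Ing1-/-), Ing1-KO, Gadd45a-KO and WT (wild type). All 4 received the same cocktail at confluence, insulin at 10 µg/ml, dexamethasone at 1 µM, rosiglitazone at 2 µM and IBMX at 0.5 mM, and insulin alone after 48 h. Dexamethasone is a glucocorticoid and rosiglitazone activates PPARγ, and both were given to WT as to the mutants. The labels do not say whether the 3 libraries of a genotype came from separate embryos or cultures, so p-values reflect only how much these libraries vary, which may be technical.

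Acute phase proteins are plasma proteins whose output changes in inflammation. The liver is their main source, where interleukin-6 acts through its receptor subunit gp130 and the transcription factor STAT3, interleukin-1 and tumour necrosis factor act through NF-κB, and the C/EBP factors and the glucocorticoid receptor bind near many of the genes. Fat cells, fibroblasts and macrophages make several of these proteins too, and haptoglobin, lipocalin 2, serum amyloid A3 and STEAP4 are all known from adipose tissue.

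Letters that these factors are known to bind can be read just upstream of the genes. RefSeq (build GRCm38.p6) gave the 250 bases before the start of 6 of the 8 genes, those other than Hp and Orm1. Lrg1 and Steap4 are printed because both fell in the libraries labelled DKO against WT, and Lcn2 and C3 because neither passed that test. Capitals mark matches on either strand to TTGCNNAA (C/EBP), TTCNNNGAA (STAT3), GGGNNNNTCC (NF-κB) and ACANNNTGT (glucocorticoid receptor). The stretches are Lrg1 chr17:56121947-56122196 (minus strand), Steap4 chr5:7960222-7960471 (plus strand), Lcn2 chr2:32387740-32387989 (minus strand) and C3 chr17:57228137-57228386 (minus strand), each written 5′ to 3′ along its gene.
Lrg1: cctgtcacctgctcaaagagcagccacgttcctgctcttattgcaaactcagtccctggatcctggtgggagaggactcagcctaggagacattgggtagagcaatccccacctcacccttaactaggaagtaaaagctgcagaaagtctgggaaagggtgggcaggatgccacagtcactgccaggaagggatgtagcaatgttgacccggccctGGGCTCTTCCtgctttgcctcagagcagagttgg
Steap4: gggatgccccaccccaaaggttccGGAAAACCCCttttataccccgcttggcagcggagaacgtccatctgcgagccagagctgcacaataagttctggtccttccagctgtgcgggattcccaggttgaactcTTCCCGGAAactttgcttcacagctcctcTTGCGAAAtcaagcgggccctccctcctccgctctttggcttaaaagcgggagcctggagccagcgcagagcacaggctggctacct
Lcn2: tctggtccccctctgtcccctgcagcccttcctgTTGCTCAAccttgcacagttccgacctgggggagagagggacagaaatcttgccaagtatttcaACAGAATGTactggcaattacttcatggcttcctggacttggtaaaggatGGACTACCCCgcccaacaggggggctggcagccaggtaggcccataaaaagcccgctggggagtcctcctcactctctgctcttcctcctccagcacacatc
C3: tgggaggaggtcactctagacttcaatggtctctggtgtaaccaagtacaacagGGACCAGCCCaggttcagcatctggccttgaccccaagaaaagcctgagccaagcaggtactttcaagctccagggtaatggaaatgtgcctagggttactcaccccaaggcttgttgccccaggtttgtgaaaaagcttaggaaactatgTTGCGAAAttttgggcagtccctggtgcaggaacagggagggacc
The C/EBP letters occurred in 4 of the 6 member promoters, those of Lcn2, Saa3, Steap4 and C3, against 9.56% of 32851 promoters of the same length. The NF-κB letters occurred in 5 of 6, all but Saa3, against 16.5%, and the glucocorticoid receptor letters in 2 of 6, Lcn2 and Serpina3n, against 5.84%. Of the 6, Steap4 held the STAT3 letters, TTCCCGGAA, which 7.02% of all promoters hold. The PPAR letters AGGNCANAGGNCA, found in 0.338% of all promoters, were in none of the 6. None of the matches overlapped another. A match says only that these letters lie in the window, and members that fell (Lrg1, Steap4) and members that did not pass (Lcn2, C3) both held the NF-κB letters.

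Counts of reads per gene were scaled to each library's total (counts per 1000000 gene reads, CPM) with TMM factors. The gene reads per library lay between 42891627 and 52860419. The targeted genes check the labels. Ing1 averaged 0.915 ± 0.234 CPM in the libraries labelled DKO and 1.22 ± 0.326 CPM in Ing1-KO, against 46.0 ± 1.47 CPM where the label says Gadd45a-KO and 45.4 ± 2.26 CPM in WT (SD, n = 3 each), as its label says. Gadd45a went against its label, with a mean of 140.1 CPM in the libraries labelled DKO, 15.6 CPM in Ing1-KO, 143 CPM in those labelled Gadd45a-KO and 15.8 CPM in WT. A count per gene hides which exons were read. Every direction below that involves the Gadd45a genotype therefore rests on the labels, and DKO and Gadd45a-KO stand for the libraries so labelled.

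In the libraries labelled DKO against WT, 4 of the 8 acute phase genes fell, from 10.8-fold for Hp to 208-fold for Orm1 by its reads, with Lrg1 and Steap4 between them, and none rose. The other 4, Serpina3n, Saa3, Lcn2 and C3, had smaller negative differences that did not pass the test. The background share of genes lower in this comparison was 7.11% of 16163 tested, at an adjusted p under 0.05 by edgeR's quasi-likelihood test over all of them. Genes higher in it numbered 950, the background for list genes that rose below. The test takes a gene's spread from all 4 genotypes together, so the Ing1-KO libraries enter the SE and p of this comparison too. The median log2 fold change of the 8 was -2.24, and that of all tested genes -0.0026. Library values of 7 of the 8, all but Lcn2, lay wholly below those of WT, where 19.7% of tested genes did.

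**Figure D1:**
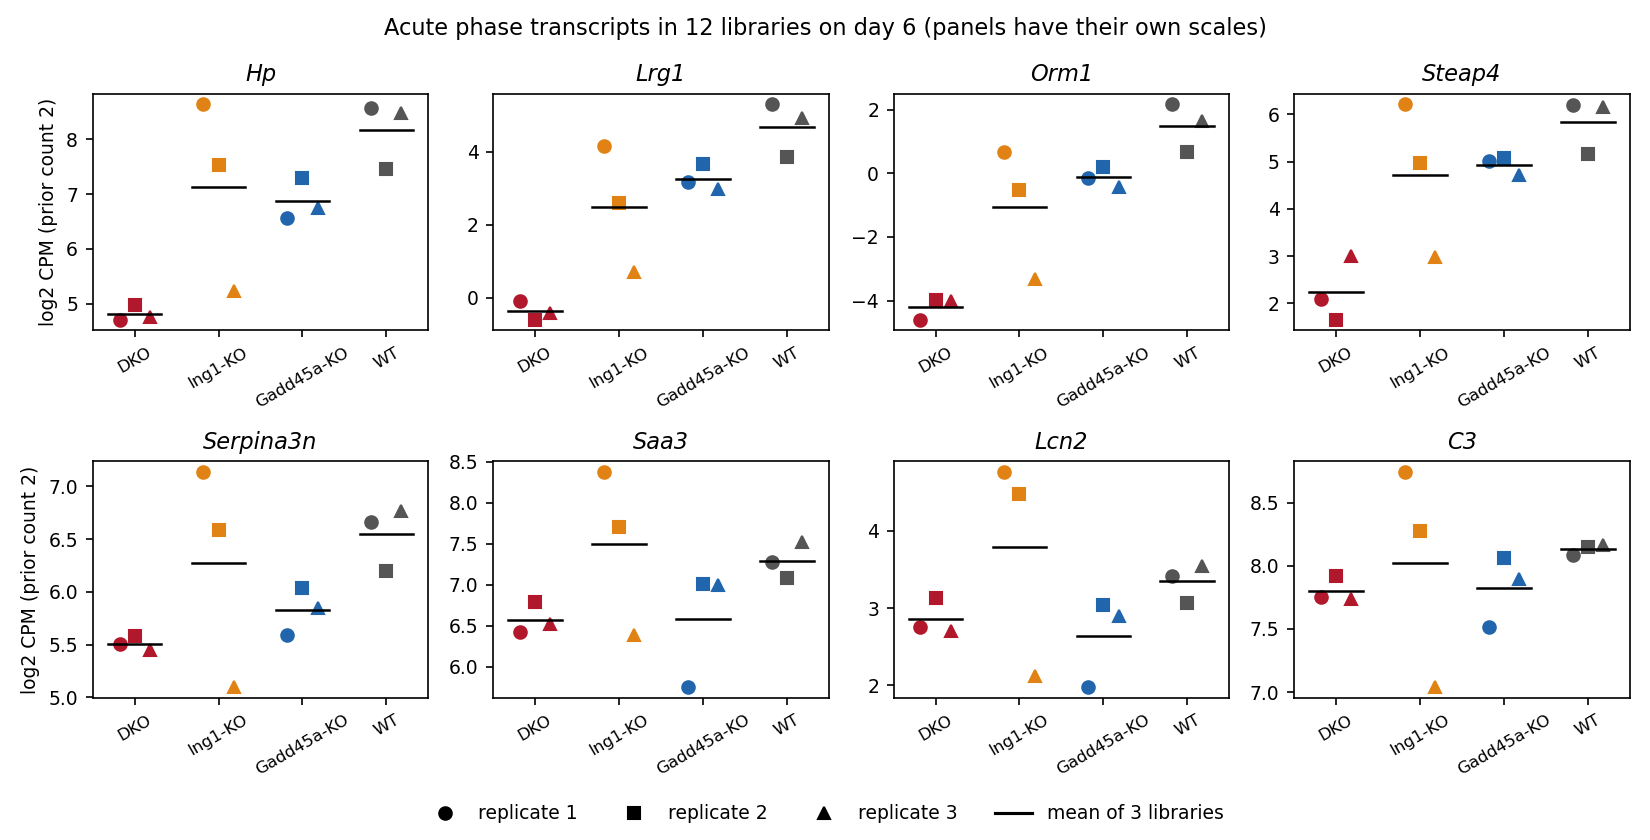
Level of each acute phase gene in log2 CPM (prior count 2; each panel has its own scale) in every library, with genotypes by label from left to right DKO, Ing1-KO, Gadd45a-KO and WT; points are single libraries and horizontal bars the means of 3. In every panel but that of Lcn2 the 3 DKO points lie below all 3 WT points, and in every panel the 3 Ing1-KO points are spread widely.

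Of the 8 genes, 3 handle iron, heme or metals. Hp (ENSMUSG00000031722) encodes haptoglobin, which binds free haemoglobin in plasma. It stood at 26.1, 31.4 and 27.1 CPM in the libraries labelled DKO, at 399, 184 and 37.5 CPM in Ing1-KO, at 95.1, 157 and 107 CPM in those labelled Gadd45a-KO, and at 381, 176 and 357 CPM in WT. The DKO values lay close together and below every other library, while Ing1-KO held both the highest of the 12 values and the lowest outside DKO. The mean of the libraries labelled DKO was 28.2 ± 2.80 CPM, against 304 ± 112 CPM in WT (SD, n = 3 each), which gave -3.43 ± 0.696 (SE) on the log2 scale and, by edgeR, an adjusted p of 0.0159.

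Steap4 (ENSMUSG00000012428) encodes a reductase of iron and copper ions known in fat and inflammation. Its levels were 4.23, 3.11 and 7.96 CPM in the libraries labelled DKO, 74.1, 31.2 and 7.89 CPM in Ing1-KO, 32.1, 33.5 and 26.2 CPM in those labelled Gadd45a-KO, and 73.0, 35.5 and 70.9 CPM in WT. DKO lay below both Gadd45a-KO and WT in every library, and overlapped Ing1-KO through replicate 3 of each. It fell 11.7-fold against WT, at -3.54 ± 0.716 on the log2 scale (edgeR adjusted p = 0.0158).

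Lcn2 (ENSMUSG00000026822) encodes lipocalin 2, which binds the iron carriers of bacteria. It was at 6.71, 8.70 and 6.48 CPM in the libraries labelled DKO, at 27.1, 22.3 and 4.33 CPM in Ing1-KO, at 3.90, 8.19 and 7.43 CPM in those labelled Gadd45a-KO, and at 10.6, 8.35 and 11.7 CPM in WT. DKO and WT overlapped, and the 2 highest of the 12 values were those of Ing1-KO replicates 1 and 2. The log2 fold change of DKO against WT was -0.49, with a 95% interval from -1.68 to 0.71 (adjusted p = 0.607, edgeR).

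Orm1 and Saa3 encode carriers of small and lipid molecules. Orm1 (ENSMUSG00000039196) encodes orosomucoid, a plasma glycoprotein that binds drugs and other lipophilic compounds. It was scarce throughout, at 0, 0.0221 and 0.0206 CPM in the libraries labelled DKO, 1.54, 0.649 and 0.0577 CPM in Ing1-KO, 0.866, 1.12 and 0.701 CPM in those labelled Gadd45a-KO, and 4.45, 1.56 and 3.09 CPM in WT. The DKO libraries together held 2 reads, against 111 in Ing1-KO, 134 in Gadd45a-KO and 439 in WT. Set against the gene reads, DKO was 208-fold lower than WT, with a 95% interval from 57.2-fold to 1721-fold that covers counting error only. The test against WT gave an adjusted p of 0.00827 (edgeR), and its fitted log2 fold change of -7.46 depends on how near-zero counts are treated.

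Saa3 (ENSMUSG00000040026) encodes a serum amyloid A that mice make mainly outside the liver, in fat cells and macrophages among others. It stood at 85.4, 110.2 and 92.0 CPM in the libraries labelled DKO, 333, 209 and 83.9 CPM in Ing1-KO, 53.8, 128 and 128 CPM in those labelled Gadd45a-KO, and 156, 136 and 183 CPM in WT. All DKO and all Gadd45a-KO values lay below the lowest WT value, and 2 of the 3 Ing1-KO values above the highest. The difference of DKO from WT, -0.72 ± 0.447 on the log2 scale, did not pass (adjusted p = 0.328, edgeR).

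Lrg1 (ENSMUSG00000037095) encodes leucine-rich alpha-2-glycoprotein, which acts on TGF-β signalling in endothelium through the co-receptor endoglin. Its values were 0.892, 0.618 and 0.701 CPM in the libraries labelled DKO, 17.9, 6.03 and 1.58 CPM in Ing1-KO, 8.93, 12.6 and 7.79 CPM in those labelled Gadd45a-KO, and 39.3, 14.4 and 30.1 CPM in WT. DKO lay below the other 9 libraries, and Gadd45a-KO between DKO and WT without touching either. Its log2 fold change for DKO against WT was -5.25 ± 0.849 (edgeR adjusted p = 0.00835), or 37.9-fold lower.

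The remaining pair act in proteolytic cascades. C3 (ENSMUSG00000024164) encodes the central complement component. It stood at 216, 242 and 213 CPM in the libraries labelled DKO, 429, 310 and 132 CPM in Ing1-KO, 183, 266 and 237 CPM in those labelled Gadd45a-KO, and 272, 284 and 287 CPM in WT. DKO lay below WT in every library, yet the difference was small, -0.33 ± 0.325 on the log2 scale (adjusted p = 0.559, edgeR).

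Serpina3n (ENSMUSG00000021091) encodes a serine protease inhibitor, a mouse relative of human alpha-1-antichymotrypsin. Its levels were 45.4, 47.8 and 43.6 CPM in the libraries labelled DKO, 141, 96.3 and 34.2 CPM in Ing1-KO, 48.2, 65.7 and 57.7 CPM in those labelled Gadd45a-KO, and 101, 73.6 and 109 CPM in WT. The values of DKO did not overlap those of WT or Gadd45a-KO. Its log2 fold change against WT, -1.05 ± 0.393, did not pass (adjusted p = 0.107, edgeR).

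Lrg1 and Orm1 passed against WT in all 12 fits that left out 1 library. Hp and Steap4 did not pass without DKO replicate 1, DKO replicate 2 or WT replicate 1, where 2 members were called. Over all genes, 174 were lower without WT replicate 1, 167 without DKO replicate 1 and 411 without DKO replicate 2, against 1149 with all 12 libraries. Serpina3n joined the 4 without Ing1-KO replicate 3 (adjusted p = 0.00819, edgeR), where 1472 genes were lower over all genes. A fit of only the 6 libraries compared called 7, all but Lcn2, and lower genes numbered 1671 in it over all genes.

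Against Ing1-KO, 4 of the 8 genes, Hp, Lrg1, Orm1 and Steap4, were lower in the libraries labelled DKO, where 6.02% of tested genes were lower. Hp had a log2 fold change of -2.87 ± 0.681 (adjusted p = 0.0309, edgeR) and Lrg1 one of -3.53 ± 0.854 (adjusted p = 0.0326). For Steap4 it was -2.88 ± 0.707 (adjusted p = 0.0339), with library values that overlap. Orm1 was 50.6-fold lower by its reads (95% counting interval 13.7 to 423; adjusted p = 0.0384, edgeR). Library values of 3 members, Hp, Lrg1 and Orm1, lay wholly below those of Ing1-KO, where 16.8% of tested genes did. Serpina3n, Saa3, Lcn2 and C3 lay at -0.99, -1.12, -1.29 and -0.37 in log2 units, and the edgeR adjusted p ran from 0.117 to 0.458. This comparison turned on single libraries. No member passed without Ing1-KO replicate 1, Ing1-KO replicate 2, DKO replicate 1 or DKO replicate 2. Over all genes 148, 9, 4 and 76 were lower in these fits, in that order, against 973 with all libraries. Without Ing1-KO replicate 1 the differences themselves were smaller, at -1.97 for Hp, -2.36 for Lrg1, -1.92 for Steap4 and a fitted -4.33 for Orm1 in log2 units. Without Ing1-KO replicate 2 or either of these DKO replicates they stayed nearer the full value, Hp for example between -2.96 and -2.82. Without DKO replicate 3 only Steap4 passed, where 729 genes were lower over all genes. Without WT replicate 3 only Hp and Lrg1 did (523 genes lower), and without Gadd45a-KO replicate 3 all but Orm1 of the 4 did (588 lower). Without Ing1-KO replicate 3 all 8 were lower, where 1779 genes were, C3 by 0.72 and Lcn2 by 1.76 in log2 units.

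Against the libraries labelled Gadd45a-KO no member passed in the libraries labelled DKO by edgeR, where 1.19% of tested genes were called in either direction. At an unadjusted p under 0.05 there were 4 members, where 19.9% of tested genes were. Lrg1 was at -3.73 ± 0.851 on the log2 scale (adjusted p = 0.0634), Steap4 at -2.57 ± 0.704 (adjusted p = 0.0918) and Hp at -2.09 ± 0.665 (adjusted p = 0.131, edgeR). Orm1, at 2 against 134 reads, had an adjusted p of 0.0688. These 4 and Serpina3n had DKO values wholly below those of Gadd45a-KO, as 13.6% of tested genes did. DESeq2 and a fit of only these 6 libraries each called Hp, Lrg1, Orm1 and Steap4, and edgeR called Lrg1, Orm1 and Steap4 without Ing1-KO replicate 1 and all 4 without Ing1-KO replicate 3. Over all genes these fits called more too, 1246 by DESeq2, 431 with only the 6 libraries, 490 when Ing1-KO replicate 1 was left out and 600 when replicate 3 was, against 192. Saa3, Lcn2 and C3 were at -0.11, 0.17 and -0.03, with 95% intervals from -1.10 to 0.89, from -1.05 to 1.38 and from -0.76 to 0.69.

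**Figure D2:**
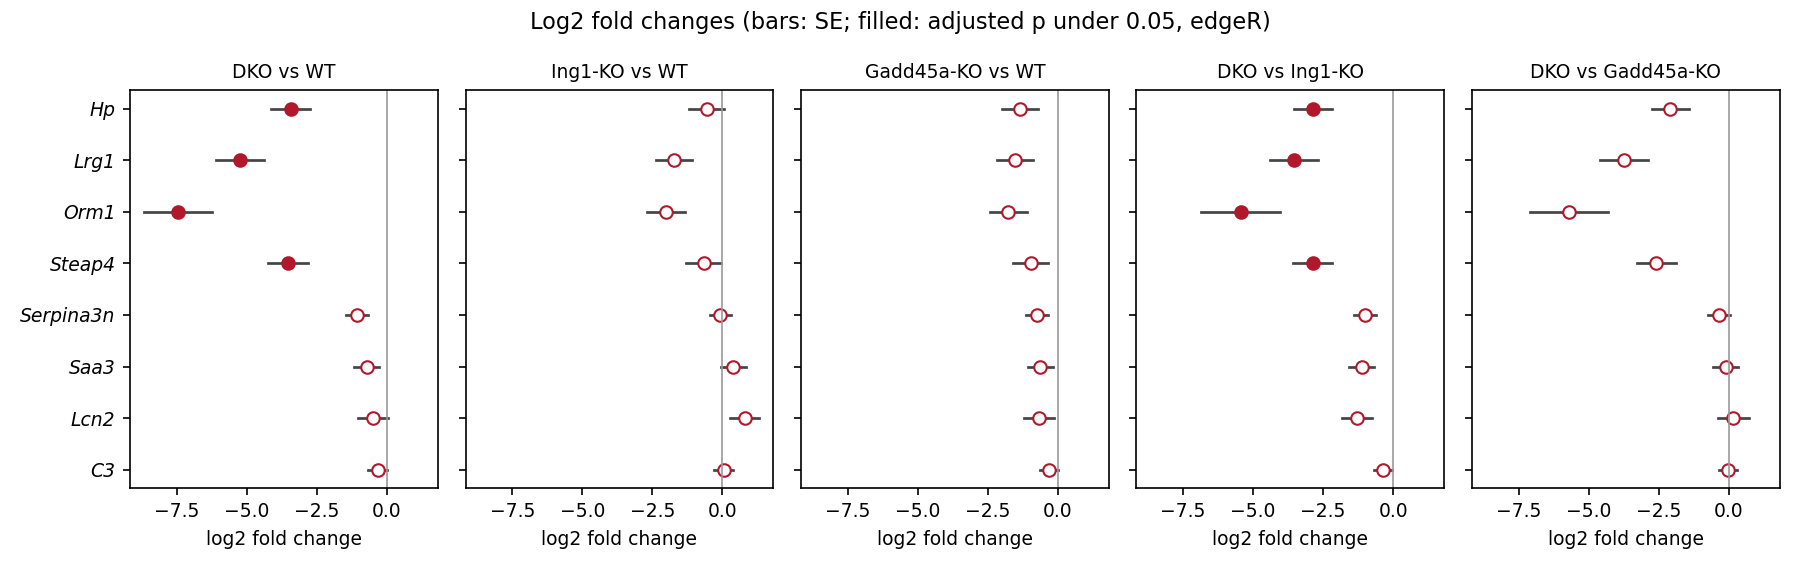
Log2 fold change of each acute phase gene with its SE in the 5 comparisons of genotypes, by label; filled points passed at an adjusted p under 0.05 by edgeR. Filled points stand for Hp, Lrg1, Orm1 and Steap4 in DKO against WT and in DKO against Ing1-KO, and for no gene in the other comparisons.

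With Gadd45a-KO libraries, by their label, set against WT, none of the 8 passed, where 0.0124% of tested genes were called, and DESeq2 called none of them either. Every member was nevertheless negative, from -0.30 for C3 to -1.76 for Orm1 in log2 units, at an edgeR adjusted p from 0.897 to 0.959. Lrg1 and Orm1, 2 of the 8, had an unadjusted p under 0.05, where 5.28% of tested genes did. All 8 had Gadd45a-KO values wholly below those of WT, where 7.61% of tested genes did. Most of the gaps were narrow. The highest Gadd45a-KO and the lowest WT value were 8.19 CPM in Gadd45a-KO and 8.35 CPM in WT for Lcn2, 266 CPM in Gadd45a-KO and 272 CPM in WT for C3, and 128 CPM in Gadd45a-KO and 136 CPM in WT for Saa3. They were 33.5 CPM in Gadd45a-KO and 35.5 CPM in WT for Steap4, and 157 CPM in Gadd45a-KO and 176 CPM in WT for Hp. WT replicate 2 was the lowest WT library for every member except C3. Of all tested genes, 21.9% were lowest in WT replicate 2 and highest in replicate 1, and 17.2% lowest in replicate 2 and highest in replicate 3.

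In Ing1-KO against WT no member passed either, where 4.15% of tested genes were called in either direction, and DESeq2 likewise called none. The signs differed between members. Orm1 was at -2.02 ± 0.673 (adjusted p = 0.125, edgeR), the one member with Ing1-KO values wholly below WT, where 12.5% of tested genes were, and Lrg1 at -1.72 ± 0.651 (adjusted p = 0.170). At an unadjusted p under 0.05 stood these 2, where 20.6% of tested genes stood. Lcn2 was at 0.81 ± 0.522 and Saa3 at 0.40 ± 0.443 (adjusted p = 0.429 and 0.677, edgeR). Without Ing1-KO replicate 1, Lrg1 and Orm1 were lower (log2 fold changes -2.89 and -3.13, adjusted p = 0.0282 and 0.0336, edgeR). Over all genes 478 were lower in that fit, against 297 with all libraries. Without Ing1-KO replicate 3, Lcn2 was higher (1.27, adjusted p = 0.0251, edgeR), where 658 genes were higher over all genes, against 374.

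The interaction asks whether the DKO difference departs from the sum of the differences of both single mutants on the log2 scale. It passed for no member and for 0% of tested genes by edgeR. No member had an unadjusted p under 0.05, where 13.6% of tested genes did. All 8 estimates were negative, from -0.08 for C3 to a fitted -3.68 for Orm1, with 95% intervals of -7.68 to 0.31 for Orm1, -4.42 to 0.41 for Lrg1, -3.98 to 0.16 for Steap4 and -3.54 to 0.48 for Hp. Without Ing1-KO replicate 1 these estimates were a fitted -2.58 for Orm1, -0.84 for Lrg1, -0.95 for Steap4 and -0.62 for Hp. The 5 comparisons and the interaction share libraries, so their values for a member are not independent of each other.

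Ordered by group mean, WT was the highest genotype for Hp, Lrg1, Orm1, Steap4 and Serpina3n, and Ing1-KO for Lcn2, Saa3 and C3. The libraries labelled DKO were the lowest for 7 members and those labelled Gadd45a-KO for Lcn2. Many neighbours in these orders overlap: Lcn2 values overlapped at every step, and for the other 7 genes the Ing1-KO values overlapped at least one neighbour. DKO did not overlap the group next above it for Hp, Lrg1, Orm1, Steap4 and Serpina3n, though Steap4 and Serpina3n overlapped Ing1-KO farther up. For Serpina3n that gap was narrow, with the highest DKO value at 47.8 CPM and the lowest Gadd45a-KO value at 48.2 CPM. Per kilobase of transcript, which allows genes to be compared, WT levels ran from 285 CPM per kb for Saa3 and 226 for Hp, through 54.7 for C3, 45.9 for Serpina3n, 19.9 for Lrg1, 19.0 for Steap4 and 11.2 for Lcn2, to 3.91 for Orm1. The Saa3 value depends on the transcript, and was 71.9 with the longest annotated one.

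Replicates of Ing1-KO differed in the same direction for all 8 genes. Each was highest in replicate 1 and lowest in replicate 3, an order that 25.2% of tested genes had. The SD of log2 CPM over the 3 libraries had a median of 1.54 over the 8 members in Ing1-KO, against 0.107 over all tested genes. For the members it was 0.210 in DKO, 0.337 in Gadd45a-KO and 0.445 in WT, and for all tested genes 0.0890 in DKO, 0.102 in Gadd45a-KO and 0.0804 in WT. The smallest member SD in Ing1-KO, 0.880 for C3 on the log2 scale, was reached by 2.31% of tested genes.

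Markers of fat cells moved with these values in part. The summed level of 12 adipocyte markers was 266, 261 and 372 CPM in the libraries labelled DKO, 2789, 930 and 327 CPM in Ing1-KO, 1353, 1394 and 1055 CPM in those labelled Gadd45a-KO, and 3128, 1562 and 2867 CPM in WT. Like all 8 acute phase genes, the sum was highest in replicate 1 and lowest in replicate 3 of Ing1-KO and, like 7 of them, lowest in replicate 2 of WT. The shares of tested genes with these orders are given above. In Gadd45a-KO the sum was lowest in replicate 3, as for 3 of the 8, while the other 5 were lowest in replicate 1. All 8 were highest in replicate 2 there. Of tested genes, 11.2% had replicate 2 highest and replicate 3 lowest, and 25.8% replicate 2 highest and replicate 1 lowest. In DKO the adipocyte sum was highest in replicate 3, as for 1 of the 8, Steap4. Of the 12 markers, 11 were lower in DKO against WT and 8 in DKO against Ing1-KO by edgeR, with Adipoq, which encodes adiponectin, at 3.99 ± 1.51 CPM in DKO and 128 ± 51.8 CPM in WT. In bulk RNA, fewer fat cells and less RNA of a gene per fat cell cannot be told apart, and the part of the adipocyte markers in the results was not tested.

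**Figure D3:**
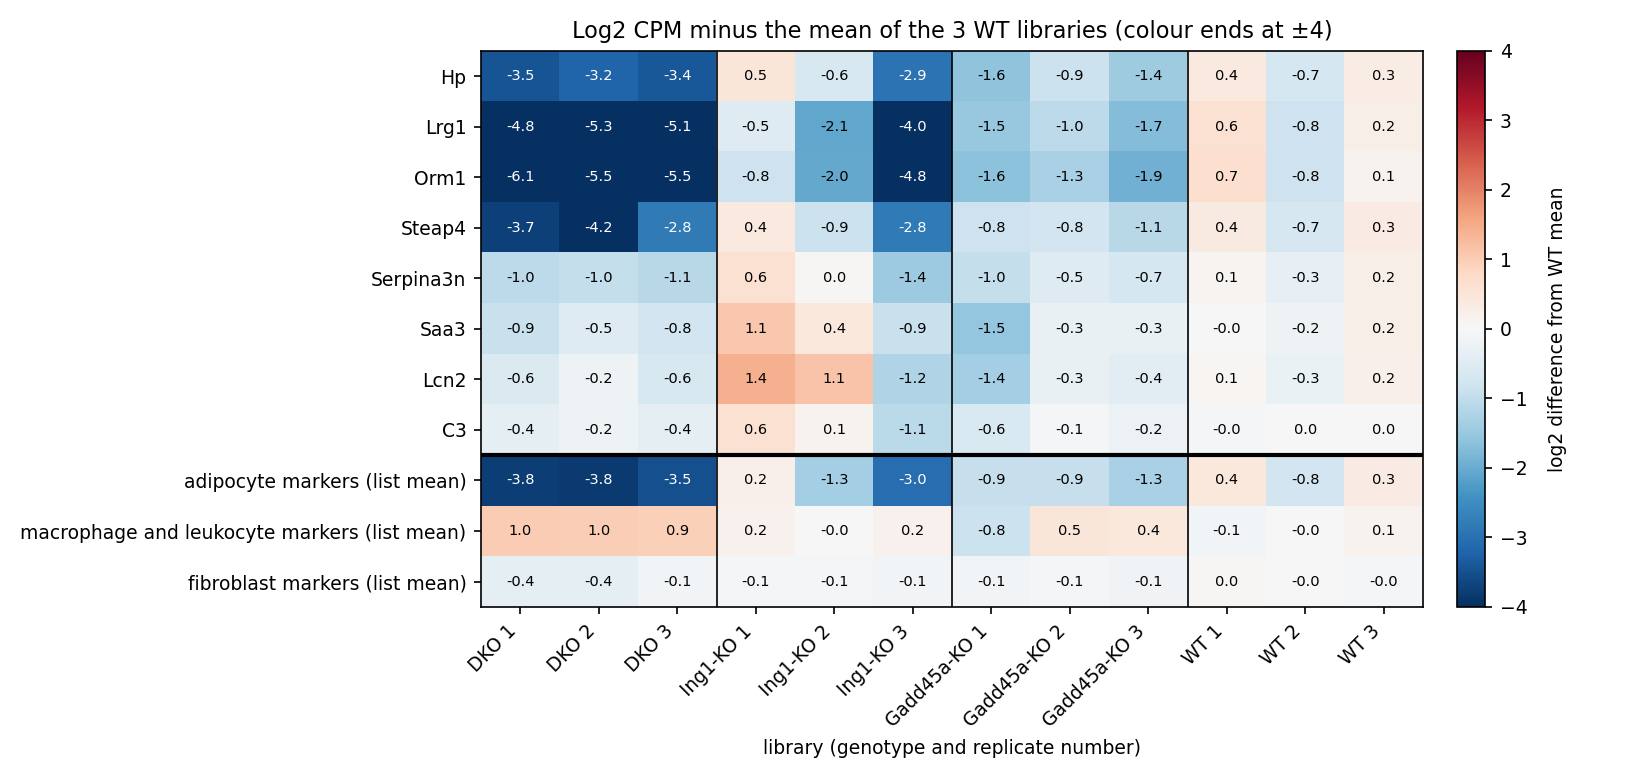
Log2 CPM of each acute phase gene in each library minus the mean of the 3 WT libraries, with the mean of 3 marker lists below the thick line; genotypes by label, colour scale ending at 4 on either side. Hp, Lrg1, Orm1, Steap4 and the adipocyte markers are lowest in the DKO libraries and Ing1-KO replicate 3, while Serpina3n, Saa3, Lcn2 and C3 are lowest in Ing1-KO replicate 3 or Gadd45a-KO replicate 1.

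Leukocyte markers moved the other way in DKO against WT. The sum of 12 macrophage and leukocyte markers lay between 6675 and 7214 CPM in the libraries labelled DKO, between 3649 and 4445 CPM in Ing1-KO, between 1869 and 5659.7 CPM in those labelled Gadd45a-KO, and between 3679.6 and 4253 CPM in WT. Of the 12, 6 were higher in DKO against WT, where 950 of 16163 tested genes were. Within Ing1-KO the leukocyte sum was highest in replicate 1, as for all 8 acute phase genes, but lowest in replicate 2. Gadd45a-KO replicate 1 had the lowest leukocyte sum of the 12 libraries and also the lowest Hp, Saa3, Lcn2, C3 and Serpina3n values of its group. Macrophages can express C3, Saa3 and Lcn2, and the part of these markers in the results was not tested. The summed level of 9 fibroblast markers lay between 45049 and 49752 CPM in the libraries labelled DKO and between 50576 and 56110 CPM in the other genotypes. Of these 9, 1 was lower in DKO against WT by edgeR. Hepatocyte markers were at or near 0, where 12 of them summed to between 0.358 and 0.704 CPM, with 6 to 10 of them at 0 reads in a library, and albumin (Alb) at 0.0235 ± 0.0407 CPM in DKO and 0.180 ± 0.0290 CPM in WT. Neutrophils are rich in lipocalin 2, and the sum of 9 of their markers was between 6.56 and 7.02 CPM in the libraries labelled DKO. It was between 3.14 and 3.64 CPM in Ing1-KO, between 1.37 and 4.31 CPM in those labelled Gadd45a-KO, and between 2.06 and 3.70 CPM in WT. Only 3 of the 9 were tested, and 1 was higher in DKO against WT by edgeR.

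Over all 12 libraries the Pearson correlation of log2 CPM was higher among the members called in DKO against WT than among the others. It is given here as a description, since libraries of a genotype share its level. Among Hp, Lrg1, Orm1 and Steap4 the r lay between 0.960 for Hp with Lrg1 and 0.991 for Lrg1 with Orm1. Among Lcn2, Saa3, C3 and Serpina3n it lay between 0.865 for Lcn2 with Serpina3n and 0.950 for Lcn2 with Saa3. Pairs of a called and an uncalled member ran from 0.402 for Lcn2 with Lrg1 to 0.916 for Hp with Serpina3n. Serpina3n was thus closer to Hp than to C3 (0.894), Saa3 (0.887) or Lcn2 (0.865), so the correlations do not split the members cleanly. With the genotype means removed, the values drew together and ran from 0.684 for Saa3 with Steap4 to 0.989 for Hp with Serpina3n.

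The genes most like each member were sought among 10518 genes at a mean of at least 5 CPM, by r over the 12 libraries. For Lrg1 they were Tshr, Cidec and Plin4 (r = 0.996, 0.995 and 0.994), and for Orm1 Plin4, Tshr and Cidec (r = 0.995, 0.993 and 0.991). Cidec and Plin4 encode proteins of lipid droplets. Steap4 was closest to Rbp4, Adipoq and Acvr1c (r = 0.996, 0.994 and 0.993), and Hp to Apol6, Pcx and Aldh1a7 (r = 0.990, 0.983 and 0.982). For Serpina3n the closest was Cp, at 0.962, which encodes the acute phase ferroxidase ceruloplasmin. Lcn2 came with Cxcl12, at 0.961, C3 with Ndrg2, at 0.949, and Saa3 with Aldh1l1, at 0.948.

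Near-identical relatives could take reads from 3 members. Of the 51-base windows of the Orm1 transcript, 20% also occur in Orm2 or Orm3, against 6.41% for Serpina3n with 7 Serpina3 genes and 1.58% for Saa3 with Saa1. Reads that fit several places were not assigned to a gene, so the levels of these 3, above all Orm1, are uncertain to that extent. No other member shared a window, and none of the 8 overlaps another annotated gene. Orm2 was at 0.0294 ± 0.0129 CPM in the libraries labelled DKO and 0.243 ± 0.0494 CPM in WT, and Orm3, Saa1 and Saa2 were scarcer. Of 6 other Serpina3 genes tested, 3 fell in DKO against WT. In log2 units Serpina3c fell by 3.17 (edgeR adjusted p = 0.00821), Serpina3i by 0.63 (adjusted p = 0.0177) and Serpina3g by 0.59 (adjusted p = 0.0355).

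Of 30 other acute phase genes, 17 were abundant enough to test. In DKO against WT 3 fell and 1 rose, and the 17 had a median difference of -0.61 in log2 units. Agt, the angiotensin precursor, was at 0.254 ± 0.0781 CPM in DKO and 4.36 ± 1.65 CPM in WT (adjusted p = 0.0173, edgeR), and Itih4 and Serpina10, both under 0.4 CPM in WT, fell too (adjusted p = 0.0260 and 0.0472). Il1rn, which encodes the interleukin-1 receptor antagonist, rose to 64.2 ± 11.3 CPM in DKO and to 115 ± 13.1 CPM in Ing1-KO, against 38.5 ± 10.4 CPM in WT (adjusted p = 0.0347 and 0.00403, edgeR). It was the 1 gene of this list called in Ing1-KO against WT. In DKO against Ing1-KO, Il1rn, Ptx3 and Lbp were lower and none higher.

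Among upstream ligands and receptors the called differences were all below 1 on the log2 scale. Of 13 tested genes of the interleukin-6 family, 1 fell in DKO against WT, the oncostatin M receptor Osmr, at 255 ± 5.48 CPM in DKO and 305 ± 5.17 CPM in WT (log2 fold change -0.26, adjusted p = 0.0162, edgeR). It was also the 1 gene of the list that fell in Ing1-KO against WT, by 0.28 (adjusted p = 0.0247). Il6 was at 2.92 ± 0.740 CPM in DKO and 4.41 ± 0.669 CPM in WT (adjusted p = 0.139), and Il6st, which encodes gp130, at 515 ± 49.7 CPM in DKO and 638 ± 10.5 CPM in WT (adjusted p = 0.0610). In the interleukin-1 and tumour necrosis factor list 4 of 12 tested genes fell and 2 rose in DKO against WT. Among them were the receptor subunits Il1rap (-0.35, adjusted p = 0.00600) and Tnfrsf1a (-0.23, adjusted p = 0.0338), and the endotoxin receptor Tlr4, which rose, by 0.63 ± 0.121 in log2 units (adjusted p = 0.0121).

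Of 20 tested transcription factors and kinases of the response, 5 fell and none rose in DKO against WT, all by less than Hp, Lrg1, Orm1 or Steap4. Cebpd was at 17.5 ± 1.71 CPM in DKO and 25.2 ± 2.94 CPM in WT (log2 fold change -0.52, adjusted p = 0.0164, edgeR) and Cebpb at 13.4 ± 0.414 CPM in DKO and 16.5 ± 0.182 CPM in WT (-0.30, adjusted p = 0.00687). Both are C/EBP factors induced early in adipogenesis and in inflammation. Jak2, a kinase of cytokine receptors, fell by 0.29 (adjusted p = 0.0142) and Stat3 by 0.14 (adjusted p = 0.0244, edgeR). Cebpa, at 21.9 ± 0.373 CPM in DKO and 45.2 ± 12.9 CPM in WT, did not pass (adjusted p = 0.0641). In Ing1-KO against WT 2 fell, Jak2 by 0.47 and Cebpb by 0.23 (adjusted p = 0.00324 and 0.0285).

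Among 22 feedback and target genes of STAT3 and NF-κB, 5 fell and none rose in DKO against WT, 4 of them chemokines. In log2 units Ccl7 fell by 0.73 (edgeR adjusted p = 0.000359), Ccl2 by 0.78 (adjusted p = 0.000533), Cxcl5 by 1.24 and the NF-κB cofactor Bcl3 by 0.51 (adjusted p = 0.0332 and 0.0172). For the label Gadd45a-KO against WT no gene of any of these lists passed. Socs3, the feedback inhibitor of STAT3, was at 23.8 ± 1.50 CPM in DKO and 29.4 ± 0.994 CPM in WT (adjusted p = 0.135). Nfkbia, the inhibitor of NF-κB, was at 36.0 ± 1.37 CPM in DKO and 36.7 ± 0.839 CPM in WT, a log2 difference of -0.02 with a 95% interval from -0.14 to 0.10.

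**Figure D4:**
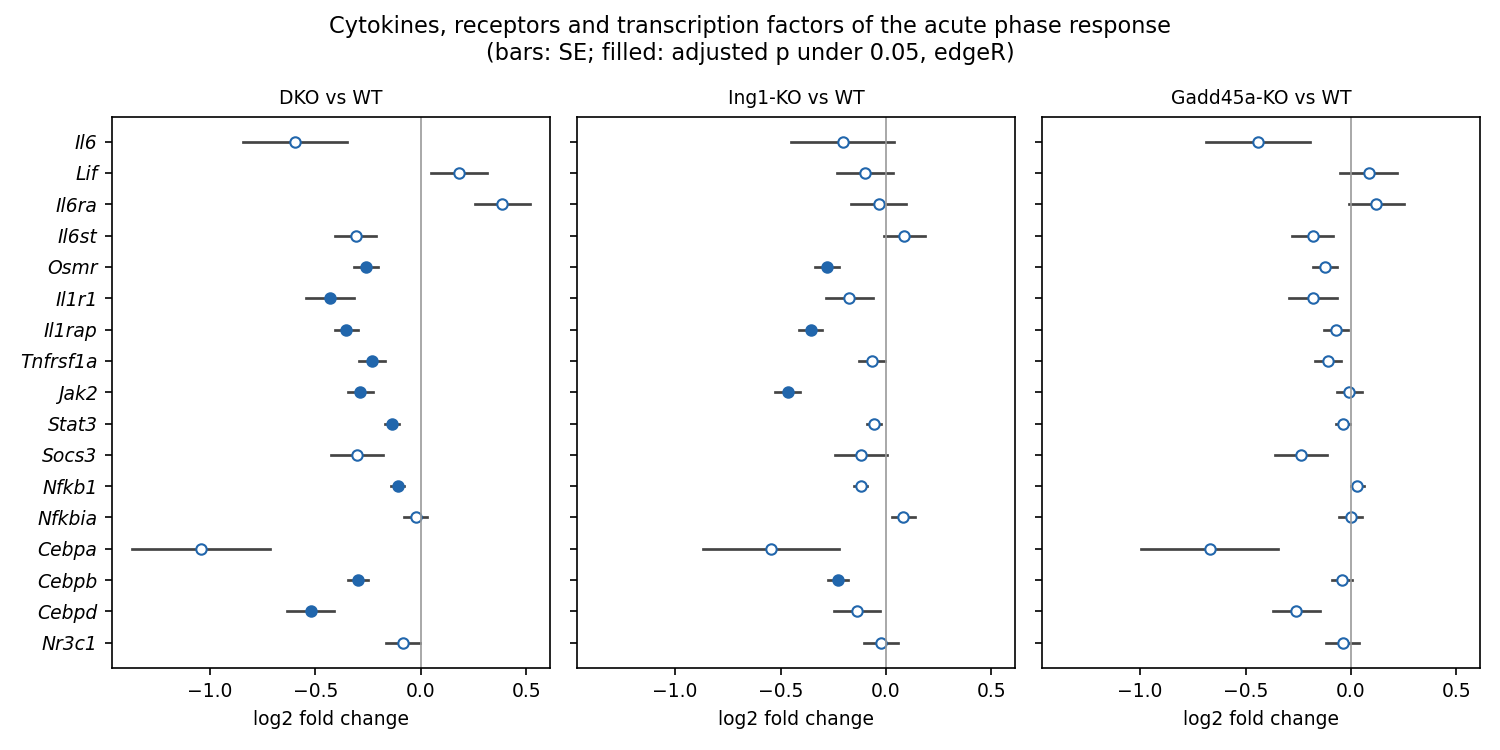
Log2 fold change with its SE in DKO, Ing1-KO and Gadd45a-KO, each against WT by label, for cytokines, receptors and transcription factors of the acute phase response; filled points passed at an adjusted p under 0.05 by edgeR. In DKO the called factors lie nearer 0, Cebpd at -0.52 and Stat3 at -0.14, than Hp at -3.43 or Lrg1 at -5.25, and no point is filled in the Gadd45a-KO panel.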

How the data were processed

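The authors deposited raw read counts, 1 file per library with Ensembl gene identifiers. Tools in the submitters' processing notes are HTSeq 0.5.4, Bowtie2 2.1.0, TopHat2 2.0.9, DESeq and FastQC, and the builds are NCBIM37 and mm9. Whether counting used strand is not given in the sources used here. A file has 37991 identifiers and 5 lines that name no gene, which took 24.2% to 24.8% of a library and were left out. Symbols came from GENCODE M21, a later build, and matched 32919 identifiers. The labels name no batch.

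The 8 members and the lists were chosen with earlier results of these data known. Counts were tested with edgeR 4.0.16 in R 4.3.3, by the quasi-likelihood test on genotype means of all 12 libraries, with filterByExpr by genotype, TMM factors and robust dispersions. Genes with a Benjamini-Hochberg adjusted p under 0.05 over 16163 tested genes were called. The SE is the absolute log2 fold change over the square root of its F statistic, and intervals are that SE times the t quantile at edgeR's degrees of freedom. Log2 CPM used a prior count of 2. Lengths are those of the first coding transcript of GENCODE M21. Beside the members and targets, genes were named by a rule: called genes of a list with the smallest adjusted p, at most 4 per list against WT and 2 otherwise, the family members of Orm, Saa and Serpina3, a few factors and markers whatever their values, and the genes most like a member. Il6 and Alb fall outside it and were chosen after their values were seen, as were some genes drawn in a figure only. Alternatives were DESeq2 1.42.0, other scaling (RLE, upper-quartile), a filter at a mean of 5 CPM or none, a replicate block, only the 6 libraries compared, and leaving out each library. The steps were tested on simulated data. All replicate pairs differed by more than sampling noise. One gene that the naming rule picks is not reported here.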

Additional observations from a re-analysis of the deposited data

How the results depend on the processing

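RLE and upper-quartile factors left the number of called acute phase genes in every comparison as it was. Among 4 members called in DKO against Ing1-KO, none passed with no filter and 1 with the replicate block. Over all genes 593 were lower there with no filter and 626 with the block, against 973 in the main fit. With only the 6 libraries compared, Hp, Lrg1 and Steap4 did not pass there, and Orm1 was under the filter on low counts and not tested. Lower genes numbered 383 in that fit over all genes. In DKO against Gadd45a-KO, DESeq2 and the 6 libraries compared each called 4, against 0. In DKO against WT the 6 libraries compared called 7. A mean of at least 5 CPM removed Orm1 from the test. Leaving out each library gave 2 to 5 called members for DKO against WT, 0 to 8 for DKO against Ing1-KO, 0 to 4 for DKO against Gadd45a-KO and 0 to 2 for Ing1-KO against WT; the cause was not tested. Replicate numbers did not pair the libraries: 2 of 18 same-numbered pairs correlated above 0.1, and 4 of 12 libraries matched their own number best. With the replicate block C3 in Ing1-KO against WT was at -0.013. Signs turned in the leave-one-out fits for members that were not called: in Ing1-KO against WT, C3 from -0.35 to 0.39, Serpina3n from -0.54 to 0.33 and Saa3 from -0.11 to 0.78; in DKO against Gadd45a-KO, Lcn2 from -0.10 to 0.37, Saa3 from -0.42 to 0.081 and C3 from -0.17 to 0.091; in DKO against Ing1-KO, C3 from -0.72 to 0.020; and in the interaction, Saa3 from -0.88 to 0.0080, C3 from -0.43 to 0.32 and Serpina3n from -0.65 to 0.21. Of 897 values of members under alternatives, 818 kept their direction and side of the threshold. Over all genes, DESeq2 called 1239, 1246 and 2916 for Ing1-KO against WT, DKO against Gadd45a-KO and DKO against Ing1-KO, where edgeR called 671, 192 and 1932, and leaving out libraries gave 6 to 3179 calls for DKO against Ing1-KO and 299 (without WT replicate 1) to 2762 (without Gadd45a-KO replicate 1) for DKO against WT, where all 12 gave 2099. With 2 DKO reads of Orm1, the counting interval of its fold leaves out the spread between libraries.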

Other observations

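Complement and receptor genes stood beside the acute phase genes without sharing one direction. Of 21 tested complement genes, 4 rose and 2 fell in the libraries labelled DKO against WT. The C1q chain C1qc was at 297 ± 1.96 CPM in DKO and 136 ± 6.45 CPM in WT (adjusted p = 0.0350, edgeR). Factor D (Cfd), the protease known as adipsin, fell to 0.0887 ± 0.0247 CPM in DKO, against 1.48 ± 0.425 CPM in WT (adjusted p = 0.0168), and Cd55, which speeds the decay of C3 convertases, fell by 0.91 on the log2 scale (adjusted p = 0.0275). In DKO against Ing1-KO 4 complement genes fell and none rose, led by Masp1 (adjusted p = 0.0117) and C4b (adjusted p = 0.0255, edgeR).

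Of 21 receptors and partners of the 8 proteins, 2 rose and 4 fell in DKO against WT. Cd163, the macrophage receptor for haptoglobin bound to haemoglobin, was at 4.16 ± 0.967 CPM in DKO and 1.05 ± 0.559 CPM in WT (adjusted p = 0.0203, edgeR), while Hp itself fell. The iron exporter Slc40a1 was at 71.7 ± 3.10 CPM in DKO and 28.6 ± 3.04 CPM in WT (adjusted p = 0.00119). Steap2 and Steap1, relatives of Steap4, were lower too, Steap2 by 0.47 (adjusted p = 0.00119) and Steap1 by 0.72 (adjusted p = 0.00374) in log2 units. Macrophage and leukocyte markers were higher in the same libraries, as given above, and their part in these values was not tested.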
